A study of Mus musculus with 4 samples.

Results

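TREM2, TYROBP, SPP1, GPNMB, CST7, CLEC7A, CD9 and LGALS3 are 8 genes of the transcript program that microglia take on around damaged tissue, often called disease-associated microglia (DAM). Their rows were taken by symbol from a table of RNA levels in which 14717 genes had a usable row for at least 1 time point. The genes were chosen with earlier results of these data known. Of the 8 genes, 7 had a row at 7 days post injury (dpi), where 14123 genes were listed, and 6 had a row at 21 dpi, where 11470 genes were listed. GPNMB, CST7, CLEC7A, CD9 and LGALS3 were listed at both times, as were 10876 genes in all. SPP1 had no row at 7 dpi, and TREM2 and TYROBP had none at 21 dpi, so those levels were not analysed here.

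The study asked how the human ApoE isoform bears on recovery after spinal cord injury (SCI). RNA was sequenced from the cord segment holding the lesion, in male targeted replacement mice, in which a human APOE allele stands in place of the mouse gene, after an incomplete contusion injury made under isoflurane. There were 4 groups: human ApoE3 mice at 7 dpi, human ApoE4 mice at 7 dpi, human ApoE3 mice at 21 dpi and human ApoE4 mice at 21 dpi. All were adult, all were injured, and no uninjured or sham-operated group was among them. Several mice per group were combined by the authors into 1 value per gene and group, as FPKM (fragments relative to the length of the transcript and to all mapped fragments). The spread between mice therefore cannot be computed, no test was run, and no difference given here has a replicate check. The number of reads behind a gene is unknown, since FPKM does not keep it.

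Genotype was read from the name of each comparison, which puts ApoE3 first, as the study's own reading of its ratios does. The numbering of the columns in the same rows would give the opposite assignment, and under it every genotype direction given here would turn around. The 7 and 21 dpi values came from separate runs of the authors' comparison, so a level at one time is set beside a level at the other as a description.

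As background, TREM2 is a receptor on microglia and macrophages that binds lipids and lipoproteins, ApoE among them, and it signals through TYROBP, an adaptor with an activation motif that recruits the kinase SYK. Microglia around plaques, demyelinated fibers and dying neurons lower their resting genes and raise a shared set that includes SPP1, GPNMB, CST7, CLEC7A, CD9 and LGALS3, and the full form of this program in mouse brain requires TREM2. Macrophages that enter an injured cord and take up myelin also express many of these genes, so the set does not by itself separate resident from blood-derived cells.

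TREM2 was measured at 459.8 FPKM in ApoE3 and 561.2 FPKM in ApoE4 at 7 dpi. TYROBP was measured at 274.3 FPKM in ApoE3 and 317.9 FPKM in ApoE4 at 7 dpi. Receptor and adaptor were thus both higher in the ApoE4 group, by log2 ratios of 0.29 and 0.21 (1.22-fold and 1.16-fold). Ratios throughout are ApoE4 over ApoE3 on log2(FPKM + 1), and a gene is called past the threshold when this ratio reaches 1.3-fold in either direction. Neither TREM2 nor TYROBP reached it. The level of TREM2 was 1.68 times that of TYROBP in ApoE3 and 1.77 times in ApoE4, both being values per transcript length.

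CLEC7A encodes dectin-1, a lectin receptor for beta-glucans that signals through SYK. It stood at 231.2 FPKM in ApoE3 and 248.5 FPKM in ApoE4 at 7 dpi, and at 47.2 FPKM in ApoE3 and 89.3 FPKM in ApoE4 at 21 dpi. Both ApoE4 values were the higher of their pair, and both 21 dpi values lay below both 7 dpi values. The log2 genotype ratio was 0.10 at 7 dpi and 0.90 at 21 dpi.

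The secreted products were SPP1, LGALS3 and CST7. SPP1, osteopontin, a matrix protein bound by integrins and CD44, was the most abundant of the listed genes at 21 dpi, with 918 FPKM in ApoE3 and 1809 FPKM in ApoE4. Its log2 ratio of 0.98 (1.97-fold) was the largest among the 8 genes at either time. LGALS3, galectin-3, a lectin that binds galactosides at the cell surface and on damaged lysosomes, stood at 448.3 FPKM in ApoE3 and 545.5 FPKM in ApoE4 at 7 dpi. At 21 dpi it stood at 69.5 FPKM in ApoE3 and 111.2 FPKM in ApoE4. CST7, cystatin F, an inhibitor of lysosomal cysteine proteases, had the lowest level of the listed genes in every group. It was measured at 20.2 FPKM in ApoE3 and 21.9 FPKM in ApoE4 at 7 dpi, and at 21.6 FPKM in ApoE3 and 40.2 FPKM in ApoE4 at 21 dpi. As deposited, the ApoE4 group at 21 dpi stood apart for CST7 from the other 3 groups, which lay close together. This gap was smaller under the scalings given below.

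GPNMB and CD9 are membrane proteins. GPNMB, a glycoprotein of late endosomes and lysosomes of lipid-laden macrophages, was the most abundant of the listed genes at 7 dpi, with 892 FPKM in ApoE3 and 1098 FPKM in ApoE4. At 21 dpi it was measured at 44.8 FPKM in ApoE3 and 65.3 FPKM in ApoE4, below CLEC7A and above CST7 in both groups. CD9, a tetraspanin that organizes other proteins in the membrane and is also made by oligodendrocytes, endothelium and other cells, was at 299 FPKM in ApoE3 and 329.1 FPKM in ApoE4 at 7 dpi, and 222.3 FPKM in ApoE3 and 268.9 FPKM in ApoE4 at 21 dpi.

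**Figure D1:**
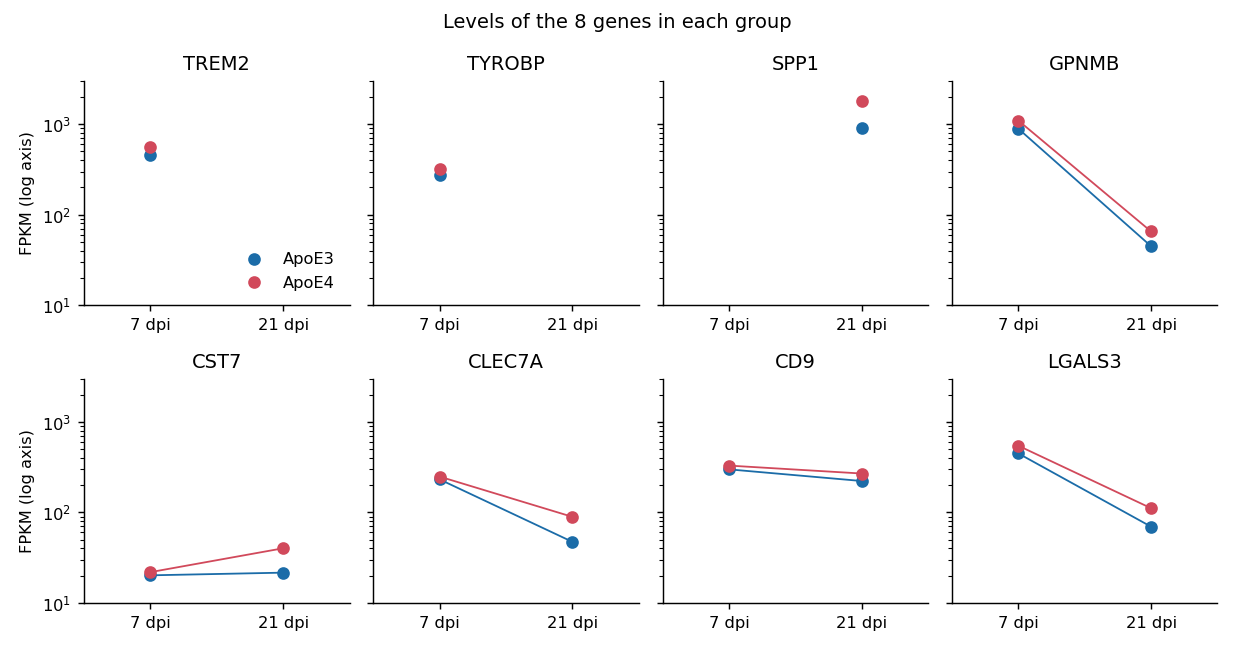
Level of each of the 8 genes in FPKM on a log axis, at 7 and 21 dpi, in the ApoE3 group (blue) and the ApoE4 group (red); each point is the authors' single value for a group, and lines join the times where a gene was listed at both. GPNMB lies furthest apart between the times, at 892 and 44.8 FPKM in ApoE3, whereas CD9 lies between 222.3 and 329.1 FPKM in all 4 groups.

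The order of levels was the same in both genotypes at each time. At 7 dpi it ran GPNMB, TREM2, LGALS3, CD9, TYROBP, CLEC7A and CST7, and at 21 dpi SPP1, CD9, LGALS3, CLEC7A, GPNMB and CST7. Some neighbours in this order were close. TREM2 exceeded LGALS3 by only 1.03-fold in both groups at 7 dpi, and CLEC7A exceeded GPNMB by 1.05-fold in ApoE3 and 1.37-fold in ApoE4 at 21 dpi. Whether such neighbours differ cannot be judged without values for single mice. The widest step was that from CLEC7A down to CST7 at 7 dpi, 11.5-fold in ApoE3 and 11.4-fold in ApoE4.

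Sequences just before the start of the gene are shown for the 3 genes with the largest genotype ratios at 21 dpi, SPP1, CST7 and CLEC7A, and for the 2 that differed most between the times, GPNMB and LGALS3. The RefSeq table of mouse promoters (GRCm38.p6) held 7 of the 8 genes, all but TYROBP, with 2 starts each for SPP1 and CLEC7A, of which the first listed is printed. Each line gives the 150 bases before the start, 5′ to 3′ on the strand of the gene, with AGGAAGT in capitals, a core read by PU.1 and other ETS factors.
SPP1, chr5:104434961-104435110, plus strand: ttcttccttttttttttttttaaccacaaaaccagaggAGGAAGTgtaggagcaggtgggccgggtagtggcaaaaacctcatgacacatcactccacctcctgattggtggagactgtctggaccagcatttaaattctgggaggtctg
CST7, chr2:150570265-150570414, plus strand: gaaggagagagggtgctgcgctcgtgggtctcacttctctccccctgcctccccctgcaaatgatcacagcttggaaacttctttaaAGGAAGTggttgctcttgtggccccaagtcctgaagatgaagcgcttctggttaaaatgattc
CLEC7A, chr6:129472780-129472929, minus strand: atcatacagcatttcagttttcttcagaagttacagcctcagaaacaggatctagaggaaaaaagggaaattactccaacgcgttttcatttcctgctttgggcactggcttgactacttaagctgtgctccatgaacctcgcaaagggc
GPNMB, chr6:49036368-49036517, plus strand: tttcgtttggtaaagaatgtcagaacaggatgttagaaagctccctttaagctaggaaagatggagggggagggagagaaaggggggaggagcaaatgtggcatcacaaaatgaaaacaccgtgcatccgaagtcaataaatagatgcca
LGALS3, chr14:47373710-47373859, plus strand: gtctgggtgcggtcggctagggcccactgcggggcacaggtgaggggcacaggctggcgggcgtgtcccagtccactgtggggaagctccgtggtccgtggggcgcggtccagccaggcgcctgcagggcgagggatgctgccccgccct

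AGGAAGT was searched on both strands of the 250 bases before each start, and it was found in SPP1, at positions -112 to -106 from the start, and in CST7, at positions -63 to -57. It occurred in 8.80% of the 27025 genes of the table. An E-box (CACGTG, 6.86% of genes), the M-box form read by MITF (TCATGTG, 3.72%) and an AP-1 site (TGACTCA, 5.16%) were searched in the same way and had no match before any of the 7 genes. The motifs were chosen after the sequences had been seen, and none of these shares bears on whether a factor binds there.

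At 7 dpi all 7 listed genes were higher in ApoE4, with log2 ratios from 0.10 for CLEC7A to 0.30 for GPNMB and a median of 0.21. The median over all genes at 7 dpi was -0.0020. None of the 7 genes passed 1.3-fold in either direction, against 4.76% of all genes higher and 3.78% lower in ApoE4. TREM2, GPNMB and LGALS3 had the larger ratios, 0.29, 0.30 and 0.28, above those of 91.5%, 92.1% and 91.2% of all genes. The ratio of TYROBP (0.21) was above those of 86.0% of all genes, that of CD9 (0.14) of 77.5%, that of CST7 (0.11) of 73.2% and that of CLEC7A (0.10) of 71.9%. In bulk tissue, fewer cells of a type and less RNA per cell cannot be told apart, and this holds for every ratio given here.

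At 21 dpi the ratios of all 6 listed genes were above 0 as deposited, with a median of 0.77, but so were 93.8% of all genes at that time. The median over genes with a mean level of at least 1 FPKM was 0.42 at 21 dpi, a shift of 1.34-fold toward ApoE4 across the table, whose source was not tested. As deposited, 5 of the 6 genes passed 1.3-fold upward, all but CD9, against 58.9% of all genes higher and 2.01% lower. That background makes the count as deposited of little use, and ratios at 21 dpi are therefore read after this median was subtracted.

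Relative to the median, SPP1 had a log2 ratio of 0.55 (1.47-fold), CLEC7A 0.48 (1.40-fold) and CST7 0.44 (1.36-fold), and these 3 of the 6 genes stayed past 1.3-fold, against 8.06% of all genes higher and 7.46% lower. The ratio of SPP1 exceeded those of 95.9% of all genes at 21 dpi, that of CLEC7A 94.8% and that of CST7 93.9%. LGALS3 (0.25) and GPNMB (0.11) were above the median without reaching the threshold. CD9 was higher in ApoE4 as deposited (0.27) and turned to -0.15 relative to the median. The median of the 6 genes after subtraction was 0.34.

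**Figure D2:**
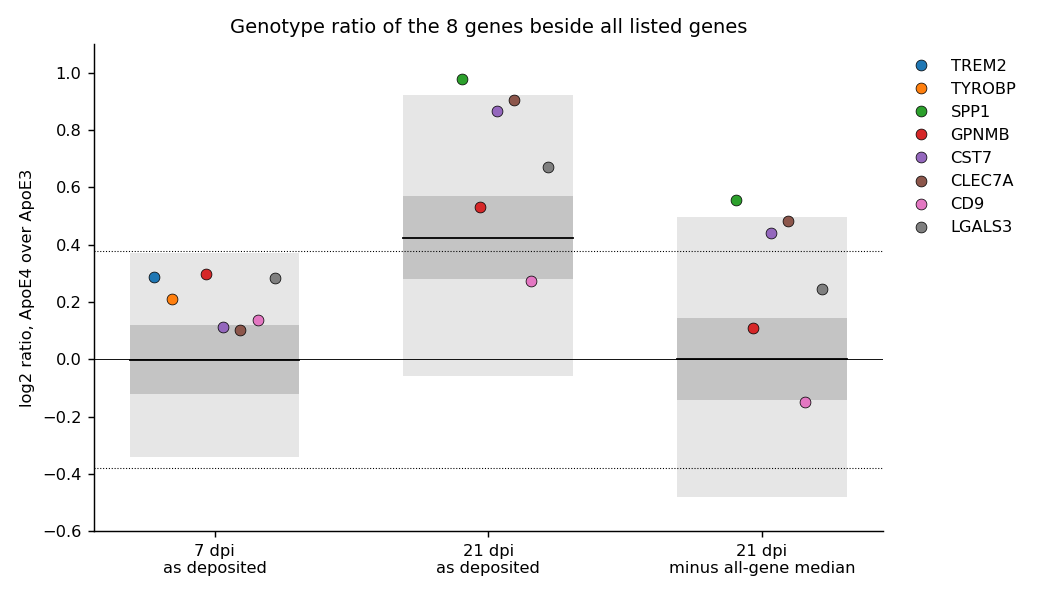
Log2 ratio of ApoE4 over ApoE3 for each listed gene (colored points) at 7 dpi as deposited, at 21 dpi as deposited, and at 21 dpi after the all-gene median of 0.42 was subtracted; light grey spans the 5th to 95th percentile of all genes, dark grey the 25th to 75th, the black bar is their median, and dotted lines mark 1.3-fold. All 7 points at 7 dpi lie between 0.10 and 0.30, and at 21 dpi SPP1, CLEC7A and CST7 stay above the upper dotted line after subtraction, whereas CD9 changes sign.

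The order of the genotype ratios was not the same at both times. CLEC7A and CST7 had the smallest ratios of the listed genes at 7 dpi (0.10 and 0.11) and, after subtraction, the largest at 21 dpi apart from SPP1 (0.48 and 0.44). GPNMB had the largest ratio at 7 dpi (0.30) and 0.11 at 21 dpi after subtraction. LGALS3 was similar at both times (0.28 and 0.25). None of these differences between the times was tested.

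Between 7 and 21 dpi the 5 genes listed at both times separated widely. GPNMB had the largest difference, with a log2 ratio of 21 over 7 dpi of -4.29 in ApoE3 and -4.05 in ApoE4, that is 19.5-fold and 16.6-fold lower at 21 dpi. LGALS3 followed with -2.67 in ApoE3 and -2.28 in ApoE4 (6.37-fold and 4.87-fold lower). CLEC7A had -2.27 in ApoE3 and -1.47 in ApoE4 (4.82-fold and 2.76-fold lower). CD9 had -0.43 in ApoE3 and -0.29 in ApoE4 (1.34-fold and 1.22-fold lower). CST7 alone was not lower at 21 dpi as deposited, with 0.09 in ApoE3 and 0.85 in ApoE4.

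In ApoE3, 4 of the 5 genes were past 1.3-fold lower at 21 dpi, against 23.6% of all genes, and 0 were past it higher, against 31.3%. In ApoE4, 3 of the 5 were lower, against 10.9% of all genes, and CST7 alone was higher, against 59%. The median time ratio over all genes with at least 1 FPKM was 0.09 in ApoE3 and 0.53 in ApoE4, a gap close to the genotype shift of the whole table at 21 dpi. Once each median was subtracted, GPNMB, LGALS3, CLEC7A and CD9 were past the threshold downward in both genotypes, 4 of the 5 genes, against 27.7% of all genes in ApoE3 and 28.6% in ApoE4. No gene of the 5 was then past it upward, against 26.6% and 26.1%.

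The subtracted time ratio of GPNMB was -4.37 in ApoE3 and -4.58 in ApoE4, and that of LGALS3 was -2.76 and -2.81. For CLEC7A it was -2.36 in ApoE3 and -1.99 in ApoE4, and for CD9 -0.51 and -0.82. That of CST7 was 0.00 in ApoE3 and 0.32 in ApoE4. With groups scaled to equal summed FPKM the ApoE3 value turned to -0.18 and the ApoE4 value was 0.14. Only 0.0552% of all genes in ApoE3 and 0.0644% in ApoE4 had a lower time ratio than GPNMB.

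**Figure D3:**
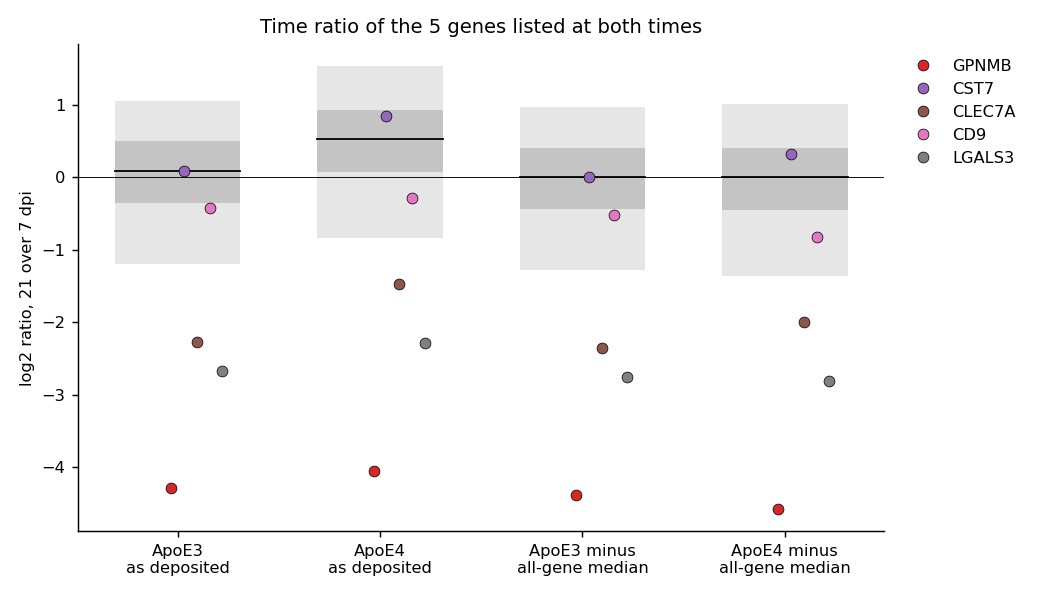
Log2 ratio of 21 over 7 dpi for the 5 genes listed at both times (colored points), in ApoE3 and ApoE4, as deposited and after the all-gene median was subtracted; light grey spans the 5th to 95th percentile of all genes, dark grey the 25th to 75th, and the black bar is their median. GPNMB, LGALS3 and CLEC7A lie below the light grey span in both genotypes, CD9 lies inside it, and CST7 lies near the median in ApoE3, where its sign turns when groups are scaled to equal summed FPKM.

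Genes that all myeloid cells express were set beside these values. The pan-myeloid list held SPI1, CSF1R, AIF1, ITGAM, PTPRC, LAPTM5, FCER1G and CORO1A, of which 6 were listed at both times. SPI1, which encodes the factor PU.1, was measured at 92.9 FPKM in ApoE3 and 113.1 FPKM in ApoE4 at 7 dpi, and at 26.6 FPKM in ApoE3 and 49.5 FPKM in ApoE4 at 21 dpi. The mean log2(FPKM + 1) over these 6 genes was higher in ApoE4 by 0.17 at 7 dpi and by 0.77 at 21 dpi, where the whole table was shifted by 0.42. The difference of this mean between the times, 21 minus 7 dpi, was -1.44 in ApoE3 and -0.84 in ApoE4. The pan-myeloid mean thus lay higher in ApoE4 at both times and lower at 21 than at 7 dpi, and its part in the ratios of TREM2 and the genes around it was not tested.

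Taken as a difference from this pan-myeloid mean, the genotype differences of the 8 genes lay on both sides of 0, and their median depended on the reference. At 7 dpi the ApoE4 minus ApoE3 difference was above 0 for 4 genes and below 0 for 3, with a median of 0.05 and a range from -0.06 for CLEC7A to 0.13 for GPNMB. TREM2 stood at 0.12 and TYROBP at 0.05 on this scale. The median at 7 dpi was larger with other references, 0.24 against the median level of the pan-myeloid genes and 0.32 against CSF1R alone. CSF1R was lower in ApoE4 at 7 dpi (-0.11), whereas the median genotype ratio of the 8 pan-myeloid genes was 0.25, above the 0.21 of the listed genes around TREM2. At 21 dpi it was above 0 for 3 genes and below 0 for 3, with a median of 0.00, or of 0.07 and 0.10 with these other references. SPP1 remained the highest at 0.21, CLEC7A stood at 0.14 and CST7 at 0.10, whereas LGALS3 (-0.10), GPNMB (-0.23) and CD9 (-0.49) were lower in ApoE4.

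Differences between the times remained on this scale, and they ran in both directions. GPNMB was lower at 21 dpi by more than the pan-myeloid mean, with -2.84 in ApoE3 and -3.21 in ApoE4, as were LGALS3 (-1.23 and -1.44) and CLEC7A (-0.83 and -0.62). CST7 and CD9 were higher relative to it, CST7 by 1.53 in ApoE3 and 1.69 in ApoE4, and CD9 by 1.02 and 0.55. The pan-myeloid mean itself differed by -1.44 in ApoE3 and -0.84 in ApoE4, whereas the all-gene median time ratio was 0.09 and 0.53. A gene at the all-gene median was therefore also higher on this scale. CD9 lay below that median in both genotypes (-0.51 and -0.82), and CST7 lay at it in ApoE3 (0.00) and above it in ApoE4 (0.32). At 7 dpi GPNMB was thus 2.36 log2 units above the pan-myeloid mean in ApoE3, and at 21 dpi it was at -0.48, below that mean.

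**Figure D4:**
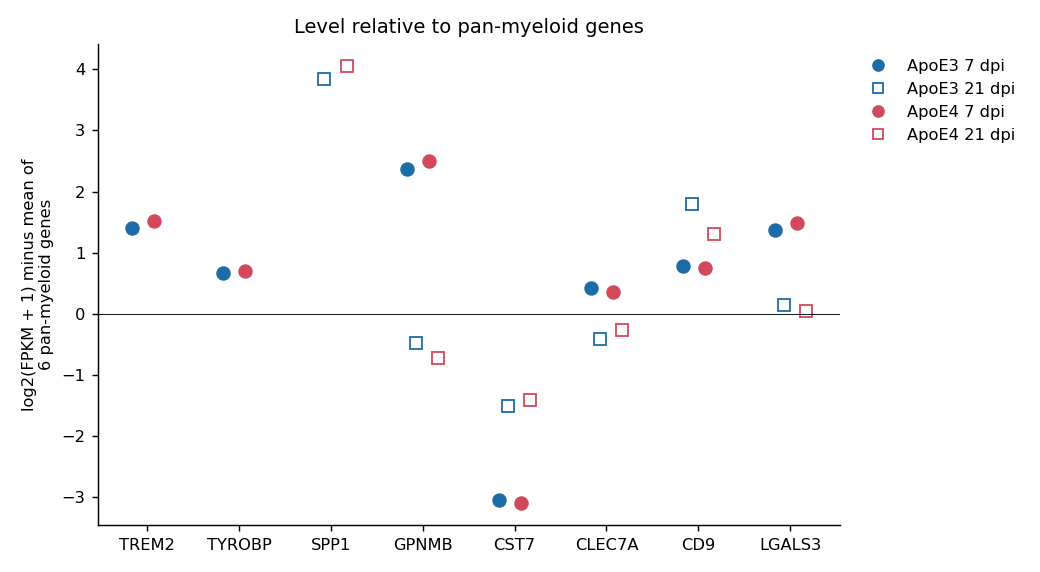
Level of each gene as log2(FPKM + 1) minus the mean of 6 pan-myeloid genes in the same group, for ApoE3 (blue) and ApoE4 (red) at 7 dpi (filled circles) and 21 dpi (open squares). At 7 dpi the genotypes differ by at most 0.13 for any gene, and at 21 dpi the widest gap is that of CD9 (-0.49). On this scale GPNMB, CLEC7A and LGALS3 are lower and CST7 and CD9 are higher at 21 than at 7 dpi. A gene at the all-gene median is also higher on it at 21 dpi, since the pan-myeloid mean is lower then.

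Genes most like the 5 listed at both times were sought by the distance between profiles over the 4 groups, each profile being log2(FPKM + 1) minus the median of all genes in that group and minus its own mean. Among 8506 genes with a mean of at least 10 FPKM, the nearest to the median profile of the 5 were HPGDS, SOAT1, CD22, MILR1, NLRC3, BCL2A1B, CSF2RB, FCRLS, TRIM14 and INPP5D. That median profile was the profile of CLEC7A itself, so HPGDS (distance 0.13), SOAT1 (0.15) and CD22 (0.16) were also its own nearest genes. HPGDS makes prostaglandin D2, and it was measured at 51.4 FPKM in ApoE3 and 54.6 FPKM in ApoE4 at 7 dpi, and at 10.9 and 20.9 FPKM at 21 dpi. SOAT1 esterifies cholesterol for storage, and CD22 is a sialic acid-binding receptor. INPP5D encodes the lipid phosphatase SHIP1, which acts against signals of TYROBP.

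GPNMB, the gene with the largest difference between times, was nearest to ATP6V0D2, a subunit of the vacuolar proton pump of macrophages and osteoclasts, to the folate receptor FOLR2 and to the scavenger receptor MSR1. ATP6V0D2 stood at 52.8 FPKM in ApoE3 and 65.6 FPKM in ApoE4 at 7 dpi and at 1.62 and 3.66 FPKM at 21 dpi. LGALS3 was nearest to APOBEC1, MDFIC and CD84, CST7 to BLOC1S6, TTYH1 and RHNO1, and CD9 to FAM126A, MOB3A and UHRF2. Among the 5 genes themselves, CLEC7A and LGALS3 had the most similar profiles (distance 0.65), and GPNMB and CST7 the least similar (4.65).

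Other genes of the DAM program were given by a list of 28, of which 24 were listed at 7 dpi. Of these, 19 were above 0 and 5 below, with a median of 0.19, and 5 passed 1.3-fold higher in ApoE4, against 4.76% of all genes. At 21 dpi 22 were listed, and after the all-gene median was subtracted 20 were above 0 and 9 were past the threshold upward, against 8.06% of all genes, with a median of 0.23. The chemokine CCL4 had the largest subtracted ratio of this list, 1.41, from 8.26 FPKM in ApoE3 and 31.9 FPKM in ApoE4. Between the times, 18 of 20 were past the threshold downward in ApoE3 and 16 of 20 in ApoE4 after subtraction, against 27.7% and 28.6% of all genes, with medians of -0.97 and -0.96. In each genotype 1 gene was past it upward, against 26.6% and 26.1% of all genes. This was FTH1 (0.73 and 0.62), the most abundant gene of the list. LYZ2, lysozyme, had -4.50 and -4.36, beside -4.37 and -4.58 for GPNMB, and IGF1 had -3.42 and -3.03.

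Signalling below TREM2 and TYROBP was given by 21 genes, from SYK, the kinase that TYROBP recruits, and PLCG2 to the SHIP1 gene INPP5D. At 7 dpi 18 of the 19 listed genes were above 0, with a median of 0.22, near the 0.29 of TREM2 and the 0.21 of TYROBP, and the scaffold LAT2 alone passed 1.3-fold upward (420.3 FPKM in ApoE3 and 585.1 FPKM in ApoE4), against 4.76% of all genes. SYK was measured at 66.2 FPKM in ApoE3 and 83.9 FPKM in ApoE4 at 7 dpi, and at 10.4 and 19.7 FPKM at 21 dpi. At 21 dpi 14 of 15 passed upward as deposited, against 58.9% of all genes, and 4 of 15 did after subtraction, against 8.06%, HCST (0.81), FGR (0.73), VAV1 (0.53) and SYK (0.43), and the median was then 0.12. Between the times all 14 genes listed at both were lower after subtraction, with medians of -1.26 in ApoE3 and -1.22 in ApoE4. Past 1.3-fold lower were 13 of the 14 in ApoE3 and 14 in ApoE4, against 27.7% and 28.6% of all genes. The pan-myeloid genes listed at both times were lower as well, with medians of -1.62 in both genotypes.

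Of 10 genes for other receptors that pair with TYROBP and for the related adaptor FCER1G, 6 were listed at 7 dpi, with a median of 0.12 and none past the threshold, against 4.76% of all genes higher and 3.78% lower, and 5 at 21 dpi, with a median of 0.52 after subtraction and 3 past it upward, against 8.06% of all genes. SIGLECH, also a gene of resting microglia, was 122.8 FPKM in ApoE3 and 237.2 FPKM in ApoE4 at 21 dpi. Ligands and regulators of TREM2 numbered 10, with a median of 0.23 over 9 listed genes at 7 dpi and of 0.32 over 8 at 21 dpi after subtraction. Among them, ADAM17, which sheds TREM2 from the cell surface, was 149.7 FPKM in ApoE3 and 171.4 FPKM in ApoE4 at 7 dpi, and 44.0 and 76.4 FPKM at 21 dpi. MS4A6D had the largest subtracted ratio of that list at 21 dpi, 1.21, from 3.74 FPKM in ApoE3 and 13.8 FPKM in ApoE4. The other sheddase, ADAM10, and the cytokine IL34 were the 2 of the 8 listed genes below 0 after subtraction, at -0.18 and -0.20, and above 0 as deposited, at 0.25 and 0.23.

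Receptors of SPP1 and targets of CST7 were set beside these secreted proteins. The 7 receptor genes for SPP1 (6 listed at 21 dpi) had a subtracted median of 0.07 at 21 dpi, beside 0.55 for SPP1, and ITGB5 (0.42) and ITGAV (0.39) passed 1.3-fold upward, against 8.06% of all genes. All 6 were past 1.3-fold lower at 21 than at 7 dpi after subtraction, against 27.7% of all genes in ApoE3 and 28.6% in ApoE4. Their medians were -0.90 in ApoE3 and -1.09 in ApoE4. Proteases that CST7 can inhibit were listed for 3 of 6 genes, CTSB, CTSC and CTSH, with medians of 0.36 at 7 dpi and 0.21 at 21 dpi after subtraction. Their subtracted time ratios had medians of -1.77 in ApoE3 and -1.85 in ApoE4, whereas that of CST7 was 0.00 and 0.32. The 3 other cystatins had a median of 0.09 at 7 dpi and, at 21 dpi, of 0.38 as deposited and -0.04 after subtraction, beside 0.44 for CST7.

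Relatives of CLEC7A, CD9 and LGALS3 were set beside them in the same way. Of 10 lectin genes that neighbour CLEC7A in the dectin cluster or belong to its family, 8 were listed at 7 dpi, with a median of 0.22, 4 past the threshold higher and 1 lower, against 4.76% and 3.78% of all genes, but the most abundant, CLEC12A, was at 12.5 FPKM in ApoE3, beside 231.2 FPKM for CLEC7A. At 21 dpi 2 were listed. The 9 tetraspanins and their partners had medians of 0.10 at 7 dpi and 0.13 at 21 dpi after subtraction, when 7 were listed, beside 0.14 and -0.15 for CD9. Galectins other than LGALS3, with its binding protein LGALS3BP, had medians of -0.09 over 5 genes at 7 dpi and 0.14 over 4 genes at 21 dpi after subtraction. The MiT factors, of which MITF is a known regulator of GPNMB, had medians of 0.03 over 4 genes at 7 dpi and, at 21 dpi, of 0.41 as deposited and -0.02 after subtraction over 3. MITF was 72.0 FPKM in ApoE3 and 77.3 FPKM in ApoE4 at 7 dpi, and 46.8 and 57.2 FPKM at 21 dpi, with subtracted time ratios of -0.70 in ApoE3 and -0.95 in ApoE4.

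**Figure D5:**
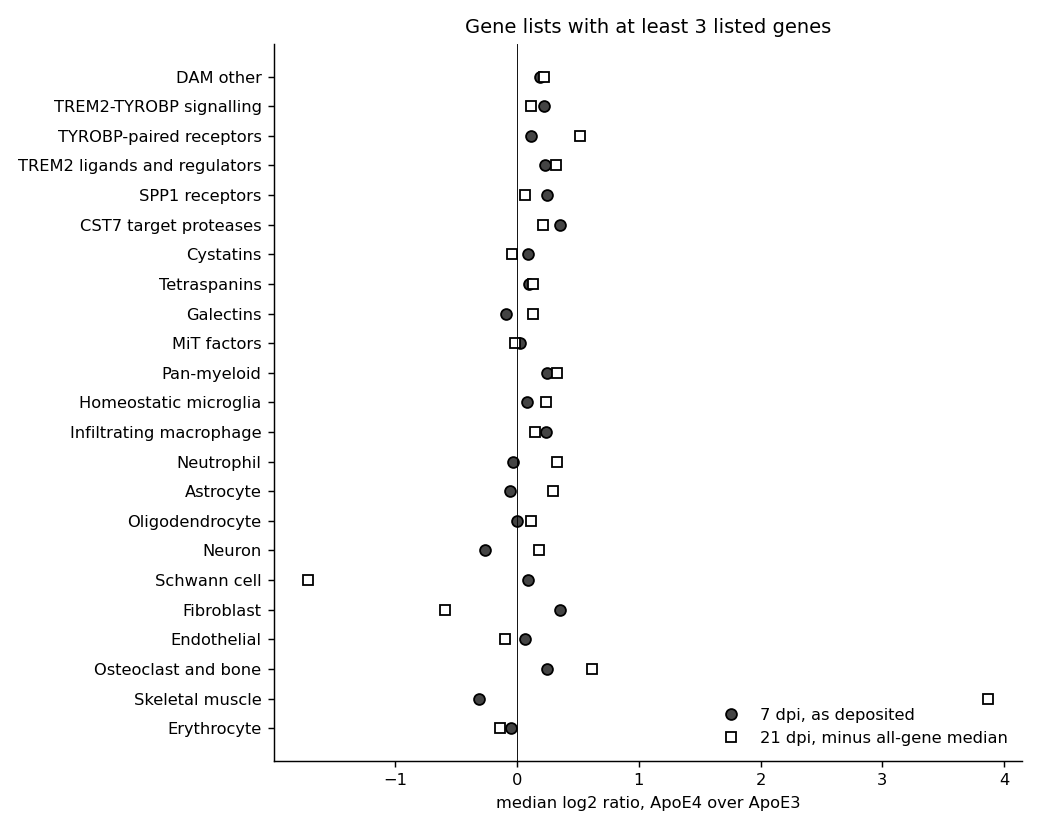
Median log2 ratio of ApoE4 over ApoE3 for each gene list with at least 3 genes listed, at 7 dpi as deposited (filled circles) and at 21 dpi after the all-gene median was subtracted (open squares). The DAM list lies at 0.19 and 0.23, whereas at 21 dpi the Schwann cell list lies at -1.71 and the skeletal muscle list at 3.87; subtraction turned the sign of 4 of the 23 lists at 21 dpi, the cystatins, the MiT factors, the endothelial and the erythrocyte genes.

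The tissue was checked against markers. Cord genes were abundant in every group, with MBP of oligodendrocytes, GFAP of astrocytes and SNAP25 of neurons at 127575, 12386 and 2545 FPKM in ApoE4 at 7 dpi. The median ratio at 7 dpi, and at 21 dpi after subtraction, was 0.00 and 0.12 for oligodendrocyte genes, -0.06 and 0.29 for astrocyte genes, and -0.26 and 0.18 for neuron genes. For endothelial genes these medians were 0.07 and -0.10 (0.33 at 21 dpi as deposited), and for erythrocyte genes -0.04 and -0.14 (0.29 as deposited). P2RY12 and CX3CR1, which define resting microglia, had no row and were not analysed here. Resting microglial genes numbered 13, of which 9 were listed at each time, with medians of 0.09 at 7 dpi and 0.24 at 21 dpi after subtraction. At 7 dpi 5 of the 9 were above 0 and 4 below. TMEM119 was 72.8 FPKM in ApoE3 and 83.6 FPKM in ApoE4 at 7 dpi, and 46.8 and 74.5 FPKM at 21 dpi. SIGLECH was lower in ApoE4 at 7 dpi, at 111.6 FPKM in ApoE3 and 103.7 FPKM in ApoE4. Genes of infiltrating macrophages were listed for 11 of 14 at 7 dpi, with a median of 0.24, and 5 passed the threshold higher in ApoE4, against 4.76% of all genes. At 21 dpi 5 were listed, with a median of 0.15 after subtraction, and the 4 listed at both times had median time ratios of -2.22 in ApoE3 and -3.0 in ApoE4 after subtraction, further down than the resting microglial genes (-0.78 and -0.69). MS4A7, a gene of blood-derived macrophages, had -4.12 and -3.50, beside the -4.37 and -4.58 of GPNMB. The part of either cell type in the values of TREM2 and the genes around it was not tested.

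CST7 is also made by cytotoxic lymphocytes and other blood cells, and CD9 by fibroblasts, endothelium and Schwann cells. Of 10 lymphocyte genes, 0 were listed at 7 dpi and 2 at 21 dpi, CD3G (0.468 FPKM in ApoE3 and 1.3 FPKM in ApoE4) and NKG7 (1.23 and 2.62 FPKM), against 21.6 and 40.2 FPKM for CST7. Of 12 neutrophil genes, 6 were listed at 7 dpi, with a median of -0.03, 1 past the threshold higher and 2 lower in ApoE4, against 4.76% and 3.78% of all genes, and 5 at 21 dpi, with a median of 0.33 after subtraction. CSF3R was the most abundant of them, at 278.6 FPKM in ApoE3 and 404.6 FPKM in ApoE4 at 21 dpi. It made up most of the summed level of the 5 genes, 303.4 and 457.2 FPKM, and its ratio after subtraction was 0.11. S100A9 was at 10.3 and 27.4 FPKM, with 0.90 after subtraction. At 7 dpi S100A9 was lower in ApoE4, at 14.1 FPKM in ApoE3 and 8.19 FPKM in ApoE4.

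Schwann cell, skeletal muscle and fibroblast genes differed between the 21 dpi groups. Whether these transcripts came from inside the cord or from tissue next to it was not tested. The summed level of the 7 listed Schwann cell genes was 3125 FPKM in ApoE3 and 1169 FPKM in ApoE4, with PMP22 the most abundant (1970 and 992 FPKM). After subtraction their median ratio was -1.71, and 6 of the 7 were past 1.3-fold lower in ApoE4, against 7.46% of all genes. The summed level of the 6 listed skeletal muscle genes was 32.6 FPKM in ApoE3 and 704 FPKM in ApoE4, with TNNT3 the most abundant (22.5 and 515 FPKM), and MYH4 was listed at 0 in ApoE3. The fibroblast genes had medians of 0.36 at 7 dpi and, at 21 dpi, of -0.16 as deposited and -0.59 after subtraction. At 7 dpi the sums were close for Schwann cell genes (802 FPKM in both groups) and lower in ApoE4 for muscle genes (160.8 and 126.7 FPKM). PVALB, which had no row at 21 dpi, held 98.3 and 86.4 FPKM of these muscle sums. Over the 5 muscle genes listed at both times, the 7 dpi sums were 62.5 FPKM in ApoE3 and 40.3 FPKM in ApoE4. MYL1 was the 1 muscle gene higher in ApoE4 at 7 dpi (0.74). Between the times, the median ratios in ApoE3 and ApoE4 after subtraction were -2.45 and -3.50 for fibroblast genes, 1.42 and -0.08 (0.45 in ApoE4 as deposited) for Schwann cell genes, -1.03 and 3.0 for muscle genes, and 0.70 and 1.21 for neuron genes, beside -2.36 and -1.99 for the 5 genes listed at both times. These differences accompany the 21 dpi ratios of SPP1, CLEC7A, CST7 and CD9 and the time ratios of GPNMB, LGALS3 and CLEC7A, and their part in those ratios was not tested.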

How the data were processed

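The authors sequenced RNA of lesion segments, brought all libraries to the depth of the smallest, and deposited FPKM plus 1 per gene and group, made, per the submitters' processing notes, with STAR 2.5.4b, Bowtie2 2.1.10, SAMtools 0.1.7 and Cuffdiff 1.3.0; the study's methods name another Bowtie2 version and mention 1 library that aligned less well, without its group. The genome build is not given in the sources used here. The deposited p-values, q-values, significance calls and fold changes of the authors' genotype comparison, and their list of differentially expressed genes, were not used.

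Here 1 was subtracted, 2 symbols per time on 2 rows were dropped, and log2 ratios were taken with a pseudocount of 1, as they were and minus the median over genes averaging at least 1 FPKM. No test was run. Calculations used Python 3.11.15, numpy 2.4.6, pandas 2.3.3 and matplotlib 3.10.9, and were checked on simulated data. Genes named were the 8 genes, members of 25 gene lists, and the nearest profiles (10 to the median profile, 3 to each of the 5 genes listed at both times); examples from the lists were picked with their values in view. One list gene is not reported here by name. The members and lists were chosen with earlier results of these data known. Alternatives were pseudocounts of 0.1 and 0.01, thresholds of 1.5-fold and 2-fold, medians over genes with at least 1 or 10 FPKM, CSF1R alone or a median as the pan-myeloid reference, and, chosen after seeing the data, scaling to equal summed FPKM.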

Additional observations from a re-analysis of the deposited data

Results flagged for a closer look

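With the all-gene median subtracted, CD9 was the 1 gene among the 5 listed at both times whose genotype ratio had opposite signs at 7 and 21 dpi. Its log2 ratio of ApoE4 over ApoE3 was 0.14 at 7 dpi and -0.15 at 21 dpi. As deposited it was above 0 at both times, at 0.14 and 0.27. Relative to the pan-myeloid mean CD9 was below 0 at both times (-0.03 and -0.49), whereas GPNMB (0.13 and -0.23), LGALS3 (0.12 and -0.10), CST7 (-0.06 and 0.10) and CLEC7A (-0.06 and 0.14) had opposite signs. With 1 value per group, the difference between the times was not tested.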

How the results depend on the processing

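Of 245 values recomputed under an alternative, 178 lay within 1.3-fold of the reported ratio or 1.5 times the reported count, and 9, for 6 results, had the other sign. A pseudocount of 0.1 left the genotype counts past 1.3-fold as deposited at 7 and 21 dpi as they were, and was not run for the other counts. The median genotype ratio at 21 dpi, 0.77 as deposited, was 0.34 after subtracting the median of genes with at least 1 FPKM, 0.34 with at least 10 FPKM and 0.33 with equal summed FPKM. The count past the threshold higher in ApoE4 at 21 dpi, 5 as deposited, was 0 at 2-fold, 3 after subtraction and 3 with equal summed FPKM. The median time ratio in ApoE4, -1.47 as deposited, was -1.99, -2.03 and -2.17 under the same 3 scalings. At 21 dpi the median of the cystatins turned to -0.040, of the MiT factors to -0.018, of endothelial genes to -0.10 and of erythrocyte genes to -0.14 after subtraction, and CD9 to -0.15, -0.16 and -0.16 under the 3 scalings. The time ratio of CST7 in ApoE3 turned to -0.03 with at least 10 FPKM and to -0.18 with equal summed FPKM. Relative to pan-myeloid genes, the median at 7 dpi went from 0.05 to 0.32 against CSF1R alone and 0.24 against their median. The cause of the shift of the whole table behind these scalings was not tested. No paired analysis was possible because each group has 1 value. Read depth per gene is unknown, which limits what can be said of genes of a few FPKM.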

Other observations

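Genes shared by osteoclasts and bone were listed for 3 of 9 genes at 7 dpi and 4 of 9 at 21 dpi. ACP5, tartrate-resistant acid phosphatase, also made by macrophages that hold lipid, was the most abundant of them. It was measured at 229.1 FPKM in ApoE3 and 359.7 FPKM in ApoE4 at 7 dpi, and at 7.74 and 20.1 FPKM at 21 dpi. Its time ratio after subtraction of the all-gene median was -4.81 in ApoE3 and -4.62 in ApoE4, a little below that of GPNMB (-4.37 and -4.58). Its genotype ratio passed 1.3-fold at 7 dpi (0.65), as did 4.76% of all genes in that direction and none of the 7 listed genes around TREM2, and it was 0.85 at 21 dpi after subtraction. CTSK, a collagen-degrading protease of osteoclasts, had a genotype ratio of 0.25 at 7 dpi, and at 21 dpi 0.25 as deposited and -0.18 after subtraction. After subtraction the 4 listed genes of this set had a median of 0.62 at 21 dpi, beside 0.55 for SPP1. Of these 4, 3 passed 1.3-fold upward, against 8.06% of all genes. The part of bone cells in the level of SPP1 was not tested. APOE, the replaced gene itself and a ligand of TREM2, was listed only at 21 dpi, at 843 FPKM in ApoE3 and 1311 FPKM in ApoE4. Its genotype ratio was 0.64 as deposited and 0.21 after subtraction, below 1.3-fold. Since the allele is human, how its reads were assigned is not known.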
